A study of Mus musculus with 4 samples.

Results

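The 9 genes H2-K1, H2-D1, H2-Q1, H2-Q2, H2-Q4, H2-Q6, H2-Q7, H2-Q10 and H2-T23 encode MHC class I heavy chains on mouse chromosome 17. They are 9 of 21774 protein-coding genes with an mm10 position in the gene table used, and they were chosen by name with earlier results of these peak lists known. Every peak that overlapped a gene or the 20 kb on either side was taken, so the presence and the fold of these peaks are the values that defined the set. They are described here, with no test. H2-K1 forms the K region, H2-D1 the D region, the 6 H2-Q genes the Q region and H2-T23 the T region. All positions are on chromosome 17 of the mm10 build.

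The data came from chromatin immunoprecipitation and sequencing (ChIP-seq) of wild-type (WT) mouse bone marrow pro-B cells, sorted as B220+, IgM- and CD43+. Chromatin was precipitated with an antibody against mouse IgD in 2 libraries, and with mouse IgG, the isotype control, in the other 2. Pro-B cells are the stage of B cell development before IgM appears at the surface, and IgD is an antibody class best known from mature B cells. The labels name no strain, age or pooling, and peak lists hold no expression by which the cell type could be checked. IgD and IgG libraries with equal numbers form a pair, and each pair has 1 peak list: 11375 peaks in pair 1 and 40628 in pair 2, so the pair 2 list is the longer. Fold enrichment is the peak caller's ratio of IgD fragments to background at the summit. The background was the same value at 77.5% of pair 1 peaks and at 70.4% of pair 2 peaks. At such peaks it is not taken as an IgG level measured at the site. With 1 list per pair and no replicate within a pair, agreement between the lists is the replicate check, and the labels do not say that the pairs came from separate mice.

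Class I molecules carry peptides from inside the cell to the surface, where CD8 T cells and natural killer cells read them, and they need beta-2-microglobulin to fold. H2-K1 and H2-D1 are classical class I genes, broadly expressed and very polymorphic. The H2-Q and H2-T genes are nonclassical: H2-Q6 and H2-Q7 belong to the genes that encode Qa-2, H2-Q10 encodes a secreted molecule made mainly in liver, and H2-T23 encodes Qa-1, which presents leader peptides of other class I molecules to natural killer cell receptors. Many of these genes arose by duplication and resemble each other closely. Promoters of classical class I genes hold known elements for NF-kB, interferon-induced factors, CREB-type factors and NF-Y.

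The promoters of 4 members are shown because the peaks nearest to a member gene lie around them. The only pair 1 peak starts just after the H2-Q6 window, H2-Q7 is its near copy, and the pair 2 peaks that lie closest to a member gene without overlapping one flank H2-D1 and H2-Q4. The sequences are from RefSeq (GRCm38.p6), run from 250 bases before to 50 after the gene's start, and read 5′ to 3′ on the gene's strand, which is the plus strand for all 4. Capitals mark matches, on either strand, of CCAAT (the NF-Y box), TGACGC (a CREB-type element), TTTCNNTTT (an interferon-response core) and GGGANNNCC (an NF-kB-type core). The windows are chr17:35424600-35424899 for H2-Q6, chr17:35438905-35439204 for H2-Q7, chr17:35379367-35379666 for H2-Q4 and chr17:35262844-35263143 for H2-D1.
H2-Q6: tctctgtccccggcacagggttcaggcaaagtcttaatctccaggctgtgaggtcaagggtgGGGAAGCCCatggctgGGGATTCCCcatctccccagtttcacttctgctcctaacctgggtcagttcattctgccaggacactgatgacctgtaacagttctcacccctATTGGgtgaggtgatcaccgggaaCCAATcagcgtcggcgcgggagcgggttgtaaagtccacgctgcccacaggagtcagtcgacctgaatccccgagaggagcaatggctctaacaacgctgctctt
H2-Q7: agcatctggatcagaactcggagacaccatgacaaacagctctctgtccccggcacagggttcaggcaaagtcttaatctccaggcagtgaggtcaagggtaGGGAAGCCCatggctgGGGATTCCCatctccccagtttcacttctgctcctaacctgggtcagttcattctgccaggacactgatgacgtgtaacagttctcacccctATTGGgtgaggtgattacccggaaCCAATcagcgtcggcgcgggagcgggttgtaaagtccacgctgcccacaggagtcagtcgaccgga
H2-Q4: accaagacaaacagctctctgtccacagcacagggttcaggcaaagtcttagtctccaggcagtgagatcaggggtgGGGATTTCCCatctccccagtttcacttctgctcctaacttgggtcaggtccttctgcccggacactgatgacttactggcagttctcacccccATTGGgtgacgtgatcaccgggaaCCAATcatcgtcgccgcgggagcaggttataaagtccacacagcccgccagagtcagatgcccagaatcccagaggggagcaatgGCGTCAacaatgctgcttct
H2-D1: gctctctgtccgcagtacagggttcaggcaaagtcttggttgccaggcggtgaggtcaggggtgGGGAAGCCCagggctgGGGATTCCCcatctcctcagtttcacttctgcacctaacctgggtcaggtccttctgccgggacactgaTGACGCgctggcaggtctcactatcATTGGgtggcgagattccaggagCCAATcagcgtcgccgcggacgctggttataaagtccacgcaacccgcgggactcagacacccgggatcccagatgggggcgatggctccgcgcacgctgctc

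The promoter table matched 8 of the 9 members, all but H2-Q1. For H2-K1, which has 2 promoter windows, the first was used for motifs and identity. CCAAT was found in 7 of the 8 promoters, against 37.4% of all 32851 promoters of the table. GGGANNNCC was found in 6 of 8, against 18.6%, and TGACGC in 3 of 8 (H2-K1, H2-D1 and H2-Q4), against 7.40%. Its matches began before the start site in H2-K1 and H2-D1, but in H2-Q4 the match lay past the start site, at position 30, on the minus strand. TTTCNNTTT was found in H2-T23 alone, against 10.6% of all promoters. The promoters of H2-K1, H2-D1, H2-Q4, H2-Q6, H2-Q7 and H2-Q10 hold TTTCACTTC, which differs from this core at its last base only. The exact core thus misses near matches, and its absence is not read as lack of an interferon-response element. All of these motifs stand for elements already known in classical class I promoters, and the members' promoters resemble each other. The counts are therefore not independent, and no enrichment is read from them against the shares of all promoters. In H2-Q6, matches of GGGANNNCC began 188 and 172 bases before the start site, and those of CCAAT 79 and 55 bases before it, the first of them on the minus strand. In H2-D1 the same cores began 186, 170, 76 and 53 bases before the start site. In both promoters the GGGANNNCC match nearer to the start site reads on either strand, so its 2 matches overlap fully. The H2-Q6 and H2-Q7 promoters were identical at 254 of 261 aligned positions (97.3%, with end gaps not counted). Most alignments with H2-T23 covered few positions, such as 4 with H2-Q2, so identity means little for its pairs. Over the 21 pairs of promoters that leave out H2-T23, identity over the aligned stretch ran from 52.9% to 97.3%, with a median of 78.4%. Reads from copies this alike can be hard to place, and how reads that map to several places were handled is not stated in the labels. The sequence under the peaks was not analysed here, so how alike the copies are at the peaks is not known, and its part in the Q region peaks was not tested.

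No peak lay over a member's promoter in either list. Of 9 promoter windows of the 8 matched members (H2-K1 has 2), pair 1 had a peak on 0 and pair 2 on 0, against 1.39% of all promoter windows in pair 1 and 3.63% in pair 2. At those shares a count of 0 among 9 is near the background. The nearest approach was at H2-Q6, where the pair 1 peak began 93 bp past the end of the promoter window. In pair 2 it was at H2-Q4, where a peak ended 1661 bp before the promoter window.

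In pair 2, 8 of the 9 members had a peak in the gene or within 20 kb, and H2-Q10 had none. The same was true of 61.5% of all protein-coding genes, and of 50.5% of the 3883 protein-coding genes that are 2500 to 8000 bp long. The members run from 2725 bp (H2-T23) to 7618 bp (H2-Q1), so this length range, added after the data were seen, is the closer background. In pair 1, 2 of the 9 had a peak, H2-Q6 and H2-Q7, against 10.7% of all protein-coding genes and 8.09% of those of that length. It was 1 peak that both windows hold, so these are not separate events. The same 2 members had a peak in both lists, against 8.29% of protein-coding genes and 5.56% of those of that length. The rule used these peaks and neighbouring windows share them, so nothing is read from the counts against these shares.

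**Figure D1:**
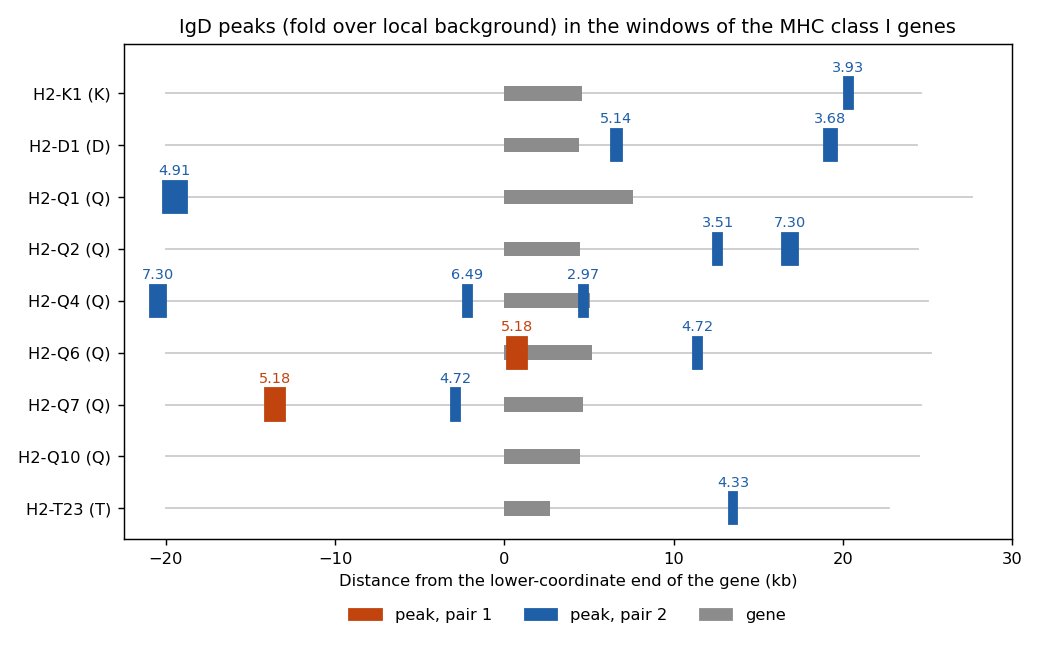
Peaks of pair 1 (orange) and pair 2 (blue) in the windows of the 9 genes, from top to bottom in order along the chromosome, with distance in kb from the lower-coordinate end of each gene (grey bar) and the fold printed above each peak. Only the pair 1 peak at H2-Q6 and the pair 2 peak of fold 2.97 at H2-Q4 touch a gene, and H2-Q10 has no peak in its window.

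In the K region, H2-K1 (33996012 to 34000619, minus strand) had 0 peaks in pair 1 and 1 in pair 2. The pair 2 peak spanned 34016059 to 34016627 (569 bp), with its summit at 34016553. That is 15934 bp outside the gene and 16206 bp upstream of the start site of the first of its 2 promoter windows. Its fold was 3.93 and its -log10 q 4.67. Behind it stood 15 IgD fragments (exact Poisson 95% interval 8.40 to 24.7), where the background was 3.07. Fragment numbers here and later were worked out from each peak's fold and p, taking IgD fragments as unscaled, and intervals cover counting error only. This peak lay at the 55.7th percentile of fold in its list, close to the middle of the list. The next pair 2 peak, just outside the window at 22.9 kb from the gene, had a fold of 4.33, and the nearest pair 1 peak was 85.5 kb away with a fold of 2.93.

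In the D region, H2-D1 (35263094 to 35267497, plus strand) had 0 peaks in pair 1 and 2 in pair 2, both downstream of the gene. The nearer spanned 35269381 to 35270030 (650 bp), with its summit at 35269739, 2242 bp past the gene's end. It had 18 fragments (10.7 to 28.4) where the background was 2.70, for a fold of 5.14 and a -log10 q of 7.53. The other spanned 35281971 to 35282722 (752 bp), with its summit at 35282142, 14645 bp past the gene's end. It had 14 fragments (7.65 to 23.5) where the background was 3.07, for a lower fold of 3.68 and a -log10 q of 4.05. The fragment intervals of both overlap. The nearest pair 1 peak to H2-D1 was 157 kb away.

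The Q region held 6 of the 10 pair 2 peaks and the single pair 1 peak. H2-Q6 (35424850 to 35430055, plus strand) was the one member with a pair 1 peak over its gene. That peak spanned 35424992 to 35426198 (1207 bp), and its summit, 35425603, was within the gene, 753 bp downstream of the start site. It had 20 fragments (12.2 to 30.9) where the background was 3.05, for a fold of 5.18 and a -log10 q of 8.06. By q it was peak 467 of 11375, in the top 4.11% of pair 1, and by fold it stood at the 94.8th percentile. One fragment more would move its fold by 0.247.

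Pair 2 had no peak over H2-Q6. Its only peak in this window spanned 35436015 to 35436519 (505 bp), between H2-Q6 and H2-Q7, with its summit at 35436339. That is 11489 bp downstream of the H2-Q6 start site and 2816 bp upstream of that of H2-Q7 (35439140 to 35443773, plus strand). It had 24 fragments (15.4 to 35.7), for a fold of 4.72 and a -log10 q of 8.59. The background here was 4.30, the highest of the 10 pair 2 peaks, whose backgrounds began at 2.70. The peaks of the 2 lists were 9817 bp apart, and their summits 10736 bp apart. Thus of the 2 members with a peak in both lists, neither had it in the same place. Both members hold the same peaks, so this rests on a single peak from each list.

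H2-Q4 (35379617 to 35384674, plus strand) had 3 pair 2 peaks, the most of any member, and 0 in pair 1. A peak at 35377159 to 35377706 (548 bp), with its summit at 35377627, lay 1990 bp upstream of the start site. It had 23 fragments (14.6 to 34.5) where the background was 2.70, for a fold of 6.49 and a -log10 q of 11.8. A weak peak at 35384007 to 35384538 (532 bp), with its summit at 35384445, lay inside the gene near its far end, with a fold of 2.97 and a -log10 q of 2.30 from 10 fragments (4.80 to 18.4). This was the lowest fold of the 10. The third, at 35358698 to 35359630 (933 bp), was in the window by 13 bp, and H2-Q2 holds it too. Windows with 3 or more pair 2 peaks were found for 6.16% of protein-coding genes of 2500 to 8000 bp.

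That shared peak had the highest fold and -log10 q of the members' peaks. Its summit at 35359393 lay inside H2-Q3, a class I pseudogene between H2-Q2 and H2-Q4. Its 26 fragments (16.98 to 38.1), where the background was 2.70, gave a fold of 7.30 and a -log10 q of 14.7. By q it was peak 773 of 40628, in the top 1.90% of pair 2. H2-Q2 (35342307 to 35346764, plus strand) also had a peak at 35354618 to 35355186 (569 bp), with a fold of 3.51 from 12 fragments (6.20 to 21.0), and the summits of both lay downstream, 12404 and 17086 bp from its start site.

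H2-Q1 (35320525 to 35328142) had 1 pair 2 peak at the very edge of its window, at 35300334 to 35301765 (1432 bp). It had 19 fragments (11.4 to 29.7) where the background was 3.07, for a fold of 4.91 and a -log10 q of 7.49. Its summit at 35300404 was 20121 bp from the gene, so the window held only part of it. The peak that missed the H2-Q1 window by least, at 26.5 kb, and the one that missed the H2-Q4 window by least, at 24.4 kb, were both the peak of fold 3.51 in the H2-Q2 window. H2-Q10 (35470089 to 35474563, plus strand) had no peak in its window. The nearest pair 1 peak was that of H2-Q6, 43.9 kb away, and the nearest pair 2 peak the one between H2-Q6 and H2-Q7, at 33.6 kb.

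In the T region, H2-T23 (36029977 to 36032701, minus strand) had 0 peaks in pair 1 and 1 in pair 2. It spanned 36043249 to 36043737 (489 bp), with its summit at 36043518, 10817 bp upstream of the start site. It had 15 fragments (8.40 to 24.7) where the background was 2.70, for a fold of 4.33 and a -log10 q of 5.31. The summit lay inside Gm6034, and the peak was 507 bp from another class I gene, H2-T22. The next pair 2 peak, outside the window, was 59.7 kb from H2-T23 with a fold of 4.33, and the nearest pair 1 peak was 486 kb away with a fold of 2.52.

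**Figure D2:**
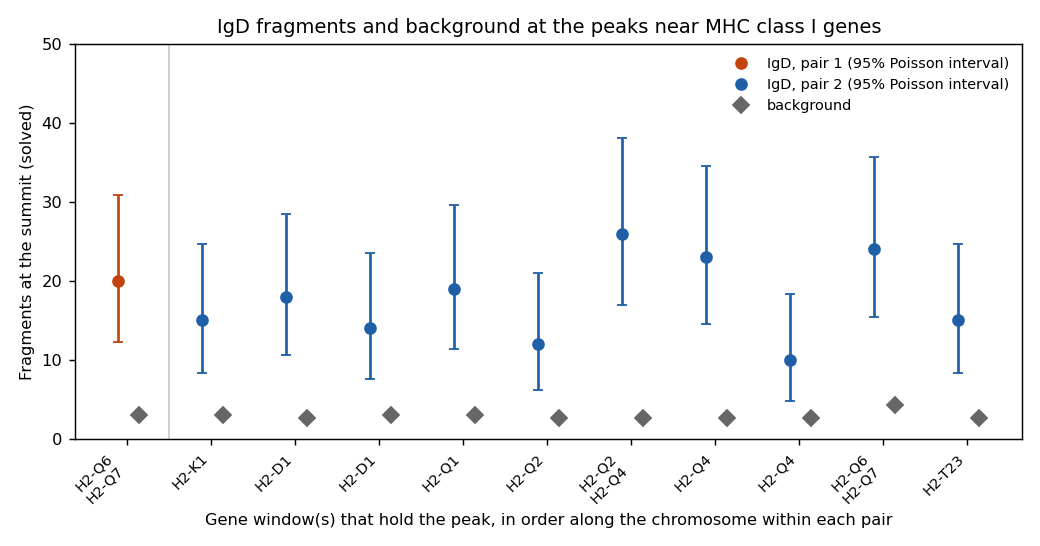
IgD fragments at the summit of each peak (circles, with exact 95% Poisson intervals for counting error) and the background (grey diamonds), for the 1 peak of pair 1 and the 10 of pair 2, labelled by the windows that hold them. Fragments run from 10 to 26 and backgrounds from 2.70 to 4.30, and all the intervals overlap.

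The 10 pair 2 peaks had folds from 2.97 to 7.30 with a median of 4.52, and the median of the whole list was 3.78. Of the 10, 7 were above that median and 6 had a -log10 q of at least 5, which 38.8% of all pair 2 peaks had. They were narrow, from 489 to 1432 bp with a median of 569 bp, against a list median of 774 bp. No peak of 5000 bp or wider lay in any window, in either list. At 6 of the 10 the background was 2.70, the commonest level of the list, which 70.4% of pair 2 peaks share. The order of the members by their highest pair 2 fold was H2-Q4 and H2-Q2 (the same peak), H2-D1, H2-Q1, H2-Q6 and H2-Q7 (the same peak), H2-T23 and H2-K1. Neighbours in this order had overlapping fragment intervals throughout, so the order is not resolved at this depth.

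**Figure D3:**
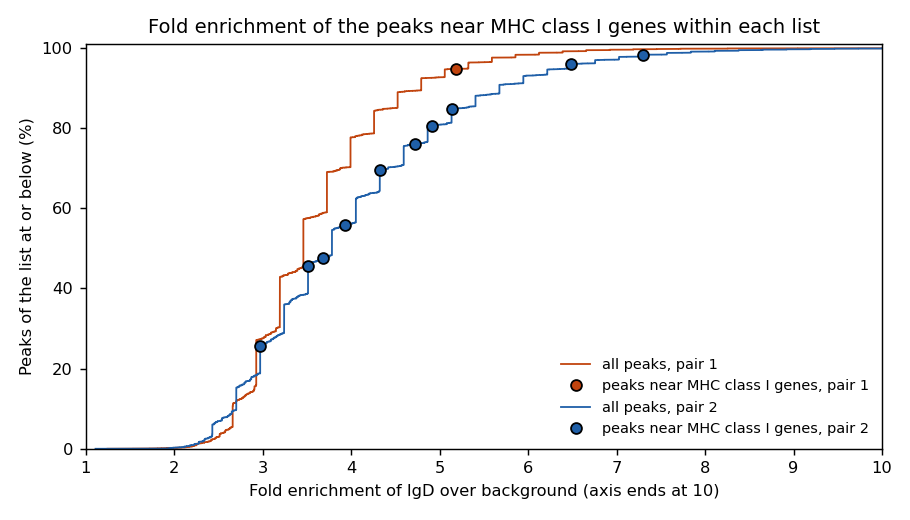
Cumulative share of peaks by fold in each list (lines, in steps because fragments are whole numbers) with the peaks near the 9 class I genes marked as circles. The pair 1 peak lies at 5.18, and the pair 2 peaks spread from 2.97 to 7.30 across their list.

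The windows of all members together cover 326 kb and held 1 pair 1 peak and 10 pair 2 peaks, or 3.07 and 30.7 per Mb. Over chromosome 17, from its first to its last gene, the densities were 2.28 per Mb in pair 1 and 14.4 per Mb in pair 2. The 4 regions of pair 2 stood at 22.4 per Mb for K (1 peak), 45.04 for D (2 peaks), 30.9 for Q (6 peaks) and 23.4 for T (1 peak). With 1 or 2 peaks in a region, these densities cannot be told apart. In pair 1 only the Q region had a peak, at 5.16 per Mb. Between the K and D windows, where the class II and class III genes lie, pair 2 had 13 peaks in 1222 kb, or 10.6 per Mb. Between the Q and T windows it had 7 in 515 kb, or 13.6 per Mb. Pair 1 had no peak in either stretch, and its H2-Q6 peak was the only one in the 2.08 Mb from the H2-K1 window to that of H2-T23. Pair 2 had 30 peaks in those 2.08 Mb, or 14.4 per Mb, near its density over chromosome 17. The genes were chosen with these peaks known, so nothing is read from the higher density in their windows.

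Genes whose 20 kb windows hold exactly the same peaks as a member in both lists were looked up as the closest in pattern. For H2-Q6 these were Gm32252, H2-Q7 and Gm8752, which share both peaks. For H2-T23 they were A930015D03Rik, H2-T22, Gm6034, Gm11127 and Gm20950. H2-D1 had Gm18733 and H2-Q1 had Gm18734, both pseudogenes, while H2-K1, H2-Q2 and H2-Q4 had no such partner. All of these lie within 23614 bp of the member they match.

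The other genes of the pathway were counted in the same way. Of 24 other class I genes and pseudogenes on chromosome 17, 14 had a pair 2 peak (58.3%) and 0 a pair 1 peak. Of the 16 that are protein-coding, 8 had a pair 2 peak. All these counts stand beside 61.5% of protein-coding genes in pair 2 and 10.7% in pair 1. For protein-coding genes of 2500 to 8000 bp the shares were 50.5% and 8.09%. In pair 2 the other class I genes were thus near the background. The gene H2-Ke6, whose symbol the list's rule also matches, encodes a steroid dehydrogenase and was left out. By symbol, 2 of 2 H2-Q, 3 of 5 H2-T and 8 of 15 H2-M genes had a pair 2 peak. The H2-Q genes here, H2-Q3 and H2-Q5, are pseudogenes. Their windows and that of H2-T22 hold only peaks that also lie in members' windows, so they add no further peak. The highest fold was that of a peak inside H2-T-ps, outside the H2-T23 window: 8.92, with a -log10 q of 20.9, from 32 fragments. The H2-T10 window holds the same peak. This fold was above that of every peak of the 9 members. Next came the peak in H2-Q3 already described. Class II molecules present peptides taken up from outside the cell. Of their 10 genes on chromosome 17, the pseudogene H2-Ea included, 3 had a pair 2 peak and 0 a pair 1 peak, against 61.5% and 10.7% of protein-coding genes. The 3 were H2-Oa (fold 4.33), H2-DMa and H2-DMb2 (fold 3.53, the same peak), which encode chains of the peptide-loading regulators DO and DM. The other 7 had none, among them H2-Ob and H2-DMb1, which encode further DO and DM chains, and the classical H2-Aa, H2-Ab1, H2-Eb1 and H2-Eb2.

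Of 15 genes of peptide supply and loading, 9 had a pair 2 peak and 2 a pair 1 peak, and no gene had both. That is near the background of 61.5% and 10.7% of protein-coding genes. The highest fold in pair 2, 5.52 from 21 fragments, was a peak inside Tap2, which lies in the windows of Tap1 and Psmb8 as well. Tap1 and Tap2 form the peptide transporter of the endoplasmic reticulum, and Psmb8 is an immunoproteasome subunit. In pair 1 the 2 genes, named after their values were seen, were Nlrc5, the transactivator of class I genes (fold 2.78), and Tapbp, which encodes tapasin (fold 2.93). Both peaks were weak, with 10 fragments each and folds under the pair 1 median of 3.46. Their -log10 q was 1.77 at Nlrc5 and 1.89 at Tapbp, where the list began at 1.31. The Tapbp peak lay 8940 bp outside the gene. B2m, the gene of beta-2-microglobulin, had no peak in its window in either list. Of 7 class I-like genes on other chromosomes, 3 had a pair 2 peak (42.9%, against 61.5%) and 0 a pair 1 peak. These were Mr1, which presents vitamin B metabolites (fold 5.14), Procr, the protein C receptor (fold 4.42), and Hfe, a regulator of iron uptake (fold 4.33).

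**Figure D4:**
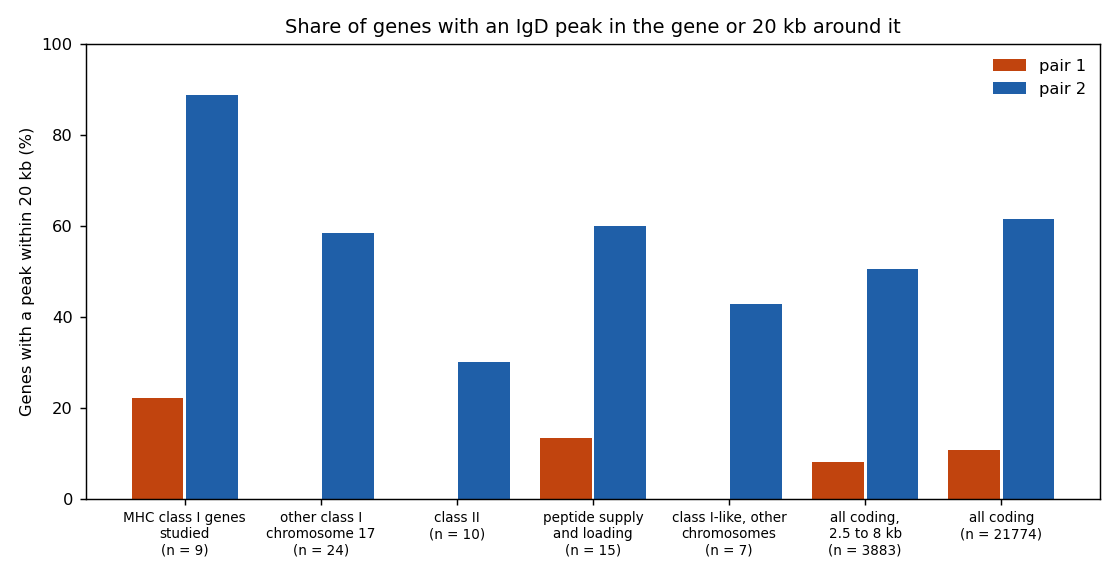
Percentage of genes with a peak in the gene or within 20 kb, in pair 1 (orange) and pair 2 (blue), for the 9 class I genes, the 4 related gene lists and all protein-coding genes. In pair 2 the 9 class I genes stand at 88.9% and protein-coding genes of 2500 to 8000 bp at 50.5%, and in pair 1 at 22.2%, from 1 peak, and 8.09%.

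Within the gene itself each list had a peak at 1 of 9 members, too few to compare the lists in number or place. In pair 1, 1 of 9 members had a peak over the gene (H2-Q6), against 3.40% of protein-coding genes of 2500 to 8000 bp. In pair 2, 1 of 9 did (H2-Q4), against 11.4%. The 1 peak of pair 1 in these windows overlapped no peak of pair 2, by 1 bp or more. The share of all pair 1 peaks that overlap a pair 2 peak was not worked out here. How well the lists agree at these genes is therefore not judged from this peak.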

How the data were processed

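Genes and lists were chosen with earlier results of these data known. Per the submitters' processing notes, HISAT2, MACS2 and ChIPseeker were used with mm10; their versions and settings, and the depth, are not stated there. The labels tie each list to the IgD and IgG libraries of 1 number. The authors deposited a fold enrichment (a ratio), a -log10 p and a -log10 q for each peak, and the summit's offset. Library totals were not used. Gene positions came from RefSeq GRCm38.p6 (C57BL/6J); 402 entries off the assembled chromosomes were left out. The strand and promoters came from the RefSeq promoter table. Fragments were solved from fold, taken as (fragments + 1) / (background + 1), and p, taken as a Poisson upper tail. On data simulated with these same formulas, this recovered 300 of 300 counts. That checks the solving only, not whether the peak caller used these formulas or left IgD fragments unscaled. Protein-coding genes of 2500 to 8000 bp as a background, and leaving out H2-Ke6, were chosen after seeing the data. All 9 members are named, as are genes with identical sets of peaks and the 3 highest folds of each related list. Alternatives covered the window, q, summits, list length, overlap and each pair alone. Promoters were aligned globally with end gaps not counted (match 1, gap opening 3). Python 3.11.15, numpy 2.4.6, pandas 2.3.3, scipy 1.17.1, matplotlib 3.10.9 and Biopython 1.88 were used.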

Additional observations from a re-analysis of the deposited data

How the results depend on the processing

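Of 42 recomputed counts, 28 stayed close to those reported and 14 moved. Some of the 28 could not have moved, so they do not measure how firm the counts are. With the gene body only, 1 member had a peak in pair 1, 1 in pair 2 and 0 in both lists, from 1 pair 2 peak. With 5000 bp on each side the counts were 1, 3 and 0 members, from 4 pair 2 peaks. Among protein-coding genes the shares were 7.60% in pair 1 and 42.3% in pair 2. The shares given for these alternatives cover protein-coding genes of every length. Shares for genes of the members' length range were not worked out here, and neighbouring members share peaks that the rule used. Nothing is therefore read from the member count against the share under any alternative, such as 3 of 9 against 42.3% or those that follow. With 50000 bp the member counts were 4 in pair 1, 9 in pair 2 and 4 in both. The same windows of protein-coding genes held a peak in 15.9% (pair 1) and 81.5% (pair 2) of cases. At a -log10 q of at least 5, 6 of the pair 2 peaks remained and 7 members had one, against 35.5% of protein-coding genes. With pair 2 cut to the length of pair 1, 5 peaks remained at 6 members, against 28.5%. The count of peaks shared by the lists was 0 under every alternative run. The single pair 1 peak overlapped no pair 2 peak, so narrower windows, shorter lists or stricter overlap could only return 0. Leaving out 1 pair at a time, members with a peak in either list ranged from 2 to 8 and the peaks from 1 to 10. Those are the counts of each list alone. These fewer or more peaks follow from the narrower or wider windows and shorter lists. No paired analysis was possible because each pair gives 1 list of peaks and no test was run. Depth limits all folds: 1 fragment moved them by 0.189 to 0.270 in pair 2.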

Other observations

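Among the 4 related lists, promoter windows under a peak were looked up after the data were seen. Of 43 windows of 40 genes, 0 held a pair 1 peak and 3 a pair 2 peak, at H2-DMa, H2-M2 and Hfe. Of all promoter windows, 1.39% held a pair 1 peak and 3.63% a pair 2 peak. At H2-DMa, which encodes a chain of the class II peptide exchange factor DM, the summit was 9 bp downstream of an annotated start site, with a fold of 3.53 from 14 fragments (95% exact Poisson interval 7.65 to 23.5). H2-M2, a nonclassical class I gene, had its summit 139 bp downstream of the start site, with a fold of 4.05 from 14 fragments. Hfe, by a peak other than its strongest, had a summit 143 bp downstream, with a fold of 2.97 from 10 fragments (4.80 to 18.4). The folds at H2-DMa and Hfe were under the pair 2 median of 3.78, and that at H2-M2 above it.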
